A study of Drosophila melanogaster with 6 samples.

Results

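The genes described here are the 2 subunits of the ecdysone receptor, EcR and usp, and 8 genes known for their response to the hormone, br, Eip74EF, Eip75B, Eip78C, Eip93F, Hr3, Hr4 and ftz-f1. They were picked by RefSeq gene name, 10 of the 16958 genes that the transcripts of the deposited tables could be matched to. Every transcript listed for them was kept, which gave 60 of 34115 transcripts. Of the 60, 24 had reads and 36 were listed at 0. In RefSeq (Release 6), usp, br and Hr4 lie on X, EcR and Hr3 on 2R, Eip74EF, Eip75B, Eip78C and ftz-f1 on 3L, and Eip93F on 3R.

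The samples are central nervous systems of third-instar Drosophila melanogaster larvae, in which dSET2, the gene Set2 for a histone H3 lysine 36 methyltransferase, was or was not depleted by RNAi. Per the labels, 3 knockdown samples had the genotype dSET2 RNAi/+; elavC155GAL4 and 3 control samples had the genotype dSET2 RNAi/+; Canton S, so that both groups carried the RNAi transgene and only the knockdown carried the driver. The driver is an enhancer trap in the X-linked gene elav, used to express transgenes in neurons, so the dissected tissue also held cells outside its main reach. Each sample pooled 15 central nervous systems taken at 84 h after egg laying (AEL) from larvae reared at 25 °C under 12 h of light and 12 h of dark.

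Ecdysone is the steroid that times the moults and metamorphosis of insects. Its active form binds a heterodimer of 2 nuclear receptors, EcR and Usp, which then switches on a small set of early genes, several of which encode transcription factors that act on late genes. In the larval nervous system the hormone is known for the remodelling of neurons at metamorphosis and for changes in the products of ageing neuroblasts. Several of these genes have alternative promoters whose transcripts respond to different hormone levels.

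The deposited values are the authors' own comparison, an edgeR table and a DESeq2 table, with no columns per sample. Both tables together fix the reads behind each transcript: the base means and the average log2 CPM, counts scaled to a fixed library size, were met by 4 libraries, here called A, B, C and D, and by exactly 1 set of whole reads for each of 12565 transcripts with a base mean up to 400. The labels describe 2 more samples than that, and which samples the libraries came from is not stated. All 499, 427 and 194 transcripts with a single read, in A, C and D in turn, had a positive log2 fold change and all 489 with a single read in B had a negative one, so positive values mean a level higher in A, C and D than in B. The tables do not say which side is the knockdown, and library B had no replicate on its side. Effective library sizes were 14198000, 8405000 and 6974000 reads in A, C and D, against 10613000 reads in B. The RNAi target Set2 held 10, 21 and 0 reads in A, C and D, against 36 in B, so that both the lowest library and the next to highest lay on the same side. Neither the tables nor the labels tie a library to a sample, so whether the sides match the labelled groups was not tested, and each fold change here is a difference between these sides, not a knockdown effect. Levels below are normalized counts, the decoded reads divided by the size factor of the library, with exact 95% Poisson intervals that cover counting error only. In such bulk samples, fewer cells of a type and less RNA per cell cannot be told apart.

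None of the 60 transcripts was past a false discovery rate (FDR) of 0.05 by edgeR (the authors' deposited table), where 0.868% of all 34115 transcripts were and 3.41% of the 7180 with a base mean of 10 or more. By DESeq2 (the authors' deposited table) the count was also 0 at an adjusted p under 0.05, which 2.26% of the 9221 transcripts with an adjusted value passed; 14 of the 60 had such a value. At an unadjusted p under 0.05 the count was 0 by edgeR and 1, a br transcript, by DESeq2. The like set for the shares over the 7180 transcripts, 8.77% and 7.02%, is the 11 with a base mean of 10 or more. Among these 11 the counts were also 0 and 1, so they are no result about these genes. The FDR of each of the 60 was 1 by edgeR (the authors' deposited table). Base means reached 10 for 11 transcripts of 5 genes, EcR, br, Eip74EF, Eip75B and Hr4, and 1 for 20 transcripts of 9 genes.

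**Figure D1:**
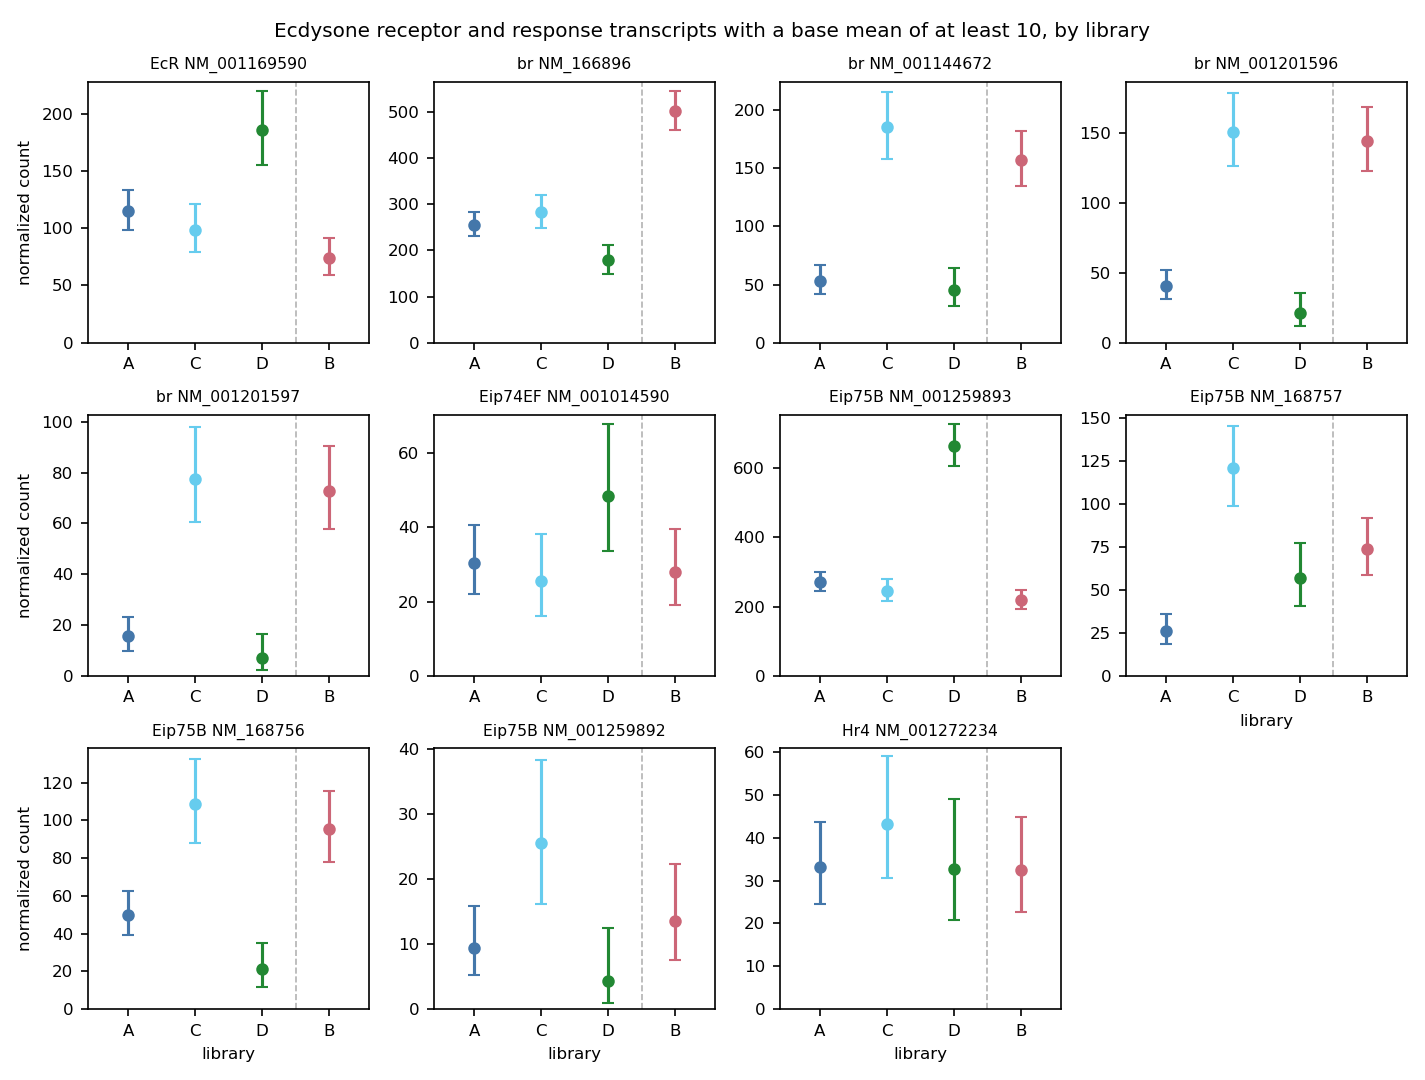
Normalized counts (linear axes that start at 0) of the 11 transcripts with a base mean of 10 or more, in libraries A, C and D, left of the dashed line, and in library B. Points are single libraries and bars are exact 95% Poisson intervals. The 3 lower br transcripts and the 3 lower Eip75B transcripts were higher in B and C than in A and D, while EcR and the leading Eip75B transcript were highest in D.

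EcR encodes the hormone-binding subunit of the receptor. Its leading transcript, NM_001169590, held 98.0% of the gene's base mean. It had normalized counts of 114.8 (95% interval 98.2 to 133) in library A, 98.7 (79.2 to 121) in C and 185 (155 to 220) in D, against 73.9 (58.8 to 91.7) in B. B was the lowest library, but its interval overlapped that of C, and D was 1.88-fold above C on the same side. In the authors' deposited table the edgeR log2 fold change was 0.83 (unadjusted p = 0.237), and the DESeq2 value was 0.68 ± 0.509 (standard error). Without library D the log2 ratio of the mean of A and C to B was 0.53, against 0.85 with all libraries. The second transcript, NM_165461, had 4, 4 and 1 reads in A, C and D and 1 read in B, and the other 4 were listed at 0.

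usp encodes the partner subunit, the fly's retinoid X receptor. Its 18 reads, all of NM_001272239, were 4, 4 and 1 in A, C and D and 9 in B, or normalized counts of 2.70, 4.43 and 1.43 against 8.11 (3.71 to 15.4). The B value lay above the other libraries, and its interval overlapped all of theirs. The log2 fold change was -1.44 by edgeR (the authors' deposited table, unadjusted p = 0.184) and -0.51 by DESeq2. The receptor subunits thus had opposite signs, and neither passed the test.

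br, the Broad-Complex, encodes a family of BTB zinc-finger proteins made from alternative promoters and zinc-finger exons, known for fixing pupal fate. Of its 14 transcripts 7 had reads. The 4 with a base mean of 10 or more all had negative log2 fold changes, from -0.71 to -1.10 by edgeR (the authors' deposited table), with unadjusted p-values from 0.0542 to 0.266. The leading one, NM_166896, had normalized counts of 256 (231 to 283) in A, 283 (249 to 320) in C and 178 (148 to 212) in D, against 503 (462 to 546) in B. B lay above the other 3 libraries and its interval overlapped none of theirs. This was the transcript of these genes nearest to a call: its log2 fold change was -1.07 by edgeR (the authors' deposited table, unadjusted p = 0.0542), and the DESeq2 value was -0.93 ± 0.451 (standard error, unadjusted p = 0.0398, adjusted p = 0.727).

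The other br transcripts did not follow that order. NM_001144672 had normalized counts of 53.4, 185 and 45.6 in A, C and D, against 157 in B. NM_001201596 had 40.5, 151 and 21.4 in A, C and D, against 144 in B. NM_001201597 had 15.5, 77.6 and 7.13 in A, C and D, against 73.0 in B. In all of these B and C lay close together and well above A and D, with C the higher. The spread within the side of A, C and D, 4.06-fold, 7.05-fold and 10.9-fold in that order, was larger than the difference between C and B. Leaving out library C took their log2 ratios to -1.66, -2.22 and -2.69, against -0.73, -1.02 and -1.13 with all libraries. Without A the ratios were -0.44, -0.74 and -0.78, and without D they were -0.39, -0.59 and -0.65. The 3 br transcripts with the fewest reads had 10, 6 and 4 over all libraries. Their log2 fold changes by edgeR (the authors' deposited table) were -1.98, 0.73 and 3.61 in that order, so they differed in sign. Summed over the gene, br had normalized counts of 369, 703 and 254 in A, C and D, against 883 in B, and C again stood apart from A and D.

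Markers of the salivary gland, a tissue where br is known to be strongly induced, were mostly higher in library B. The summed normalized count of the 8 salivary gland genes was 41.9, 70.9 and 51.3 in A, C and D, against 1604 in B. The glue genes Sgs4, Sgsf and Sgs5 had 0 reads in all of A, C and D, against 537, 497 and 74 reads in B, and Sgs7 had 2, 1 and 2 reads in A, C and D, against 511 in B. The other 4 were not called: Sgs8, fkh and Sgs3 had reads in every library and were highest in B, while Sgs1 had normalized counts of 10.8, 18.8 and 5.70 in A, C and D, against 7.21 in B. The part of the salivary gland in the br values was not tested.

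Eip75B encodes a haem-binding nuclear receptor of the early class. Its transcripts differed in sign. The leading transcript, NM_001259893, had normalized counts of 272 (246 to 300) in A, 246 (215 to 281) in C and 664 (605 to 727) in D, against 220 (193 to 249) in B. D stood far above the rest, and the intervals of A, C and B overlapped. The log2 fold change was 0.82 by edgeR (the authors' deposited table, unadjusted p = 0.177). Without library D the log2 ratio fell to 0.24, against 0.84 with it.

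The next 3 Eip75B transcripts had negative log2 fold changes, from -0.03 to -0.65, by edgeR (the authors' deposited table). NM_168756 had normalized counts of 49.97, 109 and 21.4 in A, C and D, against 95.5 in B. NM_168757 had 26.3, 121 and 57.0 in A, C and D, against 73.9 in B. NM_001259892 had 9.45, 25.5 and 4.28 in A, C and D, against 13.5 in B. C was the highest library for all 3 and B the next, as for the lower br transcripts. The interval of B overlapped that of D for NM_168757 (58.8 to 91.7 against 40.7 to 77.7). For NM_001259892 it overlapped that of A (7.56 to 22.3 against 5.17 to 15.9). The sign of NM_168757 and NM_001259892 hung on single libraries: their log2 ratios were 0.27 and 0.14 without A, and that of NM_001259892 was 0.37 without D. Without C they were -0.83 and -0.98, against -0.12 and -0.05 with all libraries. That of NM_168756 was -1.42 without C and -0.27 without D, against -0.67 with all. Summed over the transcripts of the gene, normalized counts were 361, 505 and 748 in A, C and D, against 412 in B, so that B lay within the other libraries. Of the remaining transcripts, NM_079409 had 18 reads, NM_001316451 had 1 and the last was listed at 0.

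**Figure D2:**
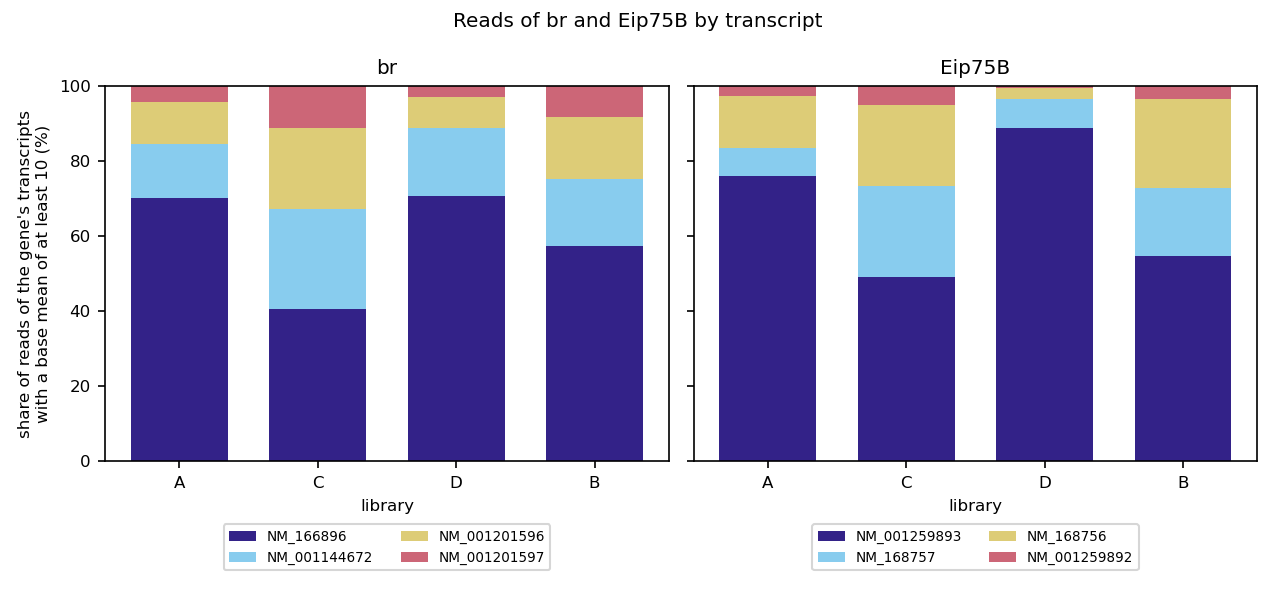
Share of reads (%) that each transcript took among the transcripts of br (left) and Eip75B (right) with a base mean of 10 or more, in libraries A, C and D and in library B. The dark bars, the leading transcripts, took 70.1%, 40.6% and 70.6% of br in A, C and D, against 57.3% in B, and 76.0%, 49.1% and 88.9% of Eip75B in A, C and D, against 54.6% in B.

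The makeup of both genes differed between libraries by more than counting error. NM_166896 took 70.1% of the br reads in library A (95% Wilson interval 66.1 to 73.8), 40.6% in C (36.8 to 44.5) and 70.6% in D (63.5 to 76.8), against 57.3% in B (54.2 to 60.4). NM_001259893 took 76.0% of the Eip75B reads in A (72.2 to 79.5), 49.1% in C (44.5 to 53.7) and 88.9% in D (86.0 to 91.3), against 54.6% in B (49.95 to 59.1). For both genes the leading transcript took more of the reads in A and D than in B and C. These intervals compare single libraries and not the conditions. The tables give no isoform names, so which promoter or zinc finger each accession stands for was not analysed here.

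Eip74EF, an early gene for an ETS-domain transcription factor, had nearly all of its reads in NM_001014590, with 1 more read in a second transcript. Its normalized counts were 30.4, 25.5 and 48.5 in A, C and D, against 27.9 in B, which lay within the others. The log2 fold change was 0.29 by edgeR (the authors' deposited table, unadjusted p = 0.709), and the log2 ratio was 0.000858 without library D. Hr4 encodes a nuclear receptor that is known to repress early genes after their peak. Its transcript NM_001272234 had normalized counts of 33.1, 43.2 and 32.8 in A, C and D, against 32.4 in B. It had the narrowest spread of the 11 transcripts, 1.32-fold between the highest and lowest of A, C and D, and the log2 fold change was 0.16 by edgeR (the authors' deposited table, unadjusted p = 0.832). The DESeq2 value of Hr4 in the authors' deposited table was 0.12, with a 95% interval from -1.02 to 1.26, which holds a 2-fold change in either direction.

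The remaining genes are Eip78C, ftz-f1, Hr3 and Eip93F. Few reads were counted for them at 84 h AEL, as for the receptor gene usp, and what part the stage had in this was not tested. Eip78C, an early-late nuclear receptor gene, had 5, 8 and 3 reads in A, C and D and 3 reads in B. ftz-f1, whose nuclear receptor product gives prepupal tissues the competence to respond to the next hormone pulse, had 4, 1 and 2 reads in A, C and D and 5 reads in B. Hr3, a nuclear receptor gene that acts upstream of ftz-f1, had 0, 2 and 3 reads in A, C and D and 1 read in B. Eip93F, which encodes a factor of adult development and cell death, had 1 read in all, in B. Reads this few fix no fold: 3 reads correspond to a normalized count of 2.03, 3.33 and 4.28 in A, C and D, against 2.70 in B. Their unadjusted p-values ran from 0.193 for Eip93F to 0.635 for Hr3 by edgeR (the authors' deposited table).

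**Figure D3:**
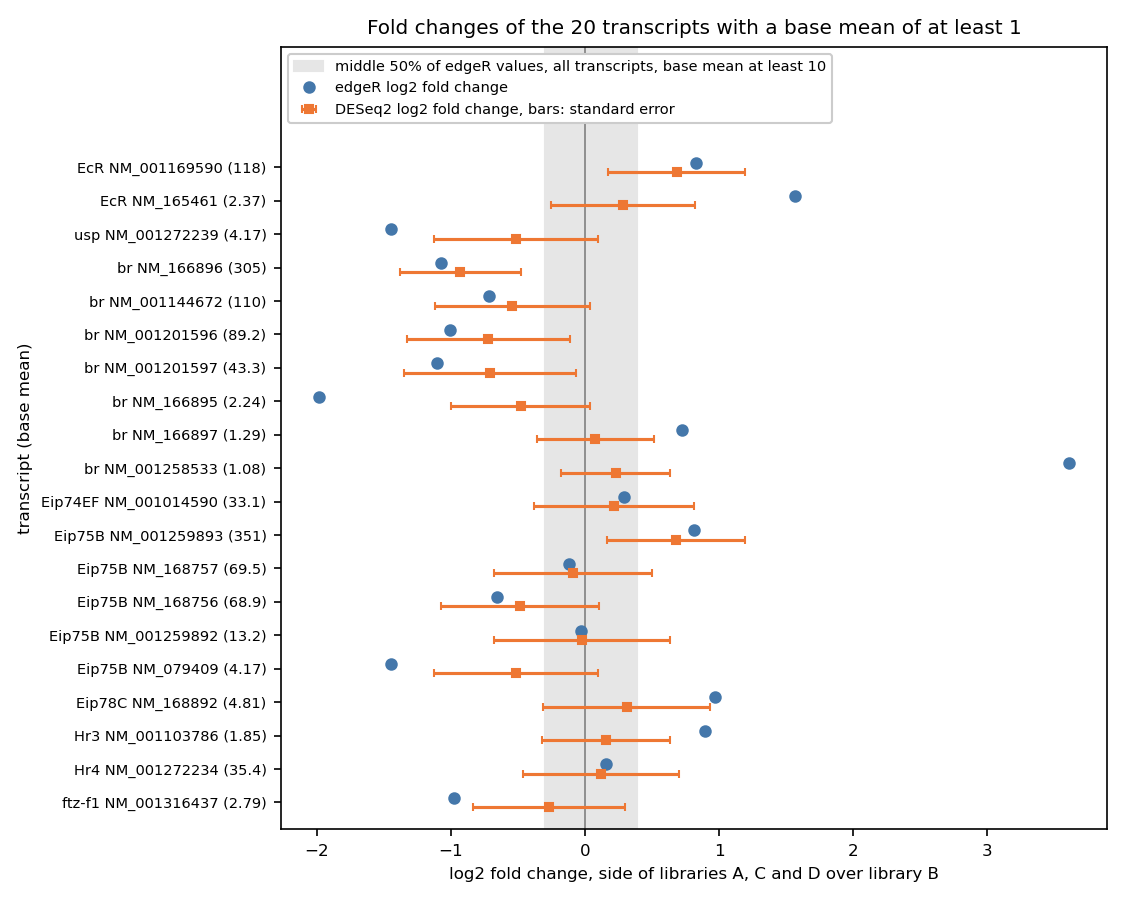
Log2 fold changes (side of libraries A, C and D over library B) of the 20 transcripts with a base mean of 1 or more, from the authors' deposited edgeR table (circles) and DESeq2 table (squares, bars are the standard error); the grey band holds the middle 50% of all transcripts with a base mean of 10 or more. The 4 leading br transcripts lie left of 0, EcR and the leading Eip75B transcript right of it, and both tables gave the same sign for each. The br transcripts with the fewest reads lie on both sides of 0.

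A listing at 0 does not show that a transcript is absent, since transcripts that share exons were listed separately. Of genes with a single listed transcript, 77.8% had reads. Of the transcripts of genes with 6 or more, 24.5% had. In the Ensembl annotation of BDGP6.54, the share of exonic bases that belong to only 1 transcript was 51.4% for Eip75B, 29.4% for EcR, 27.4% for br, 25.9% for Hr4 and 19.2% for Eip74EF. Among the genes with few reads it was 31.1% for ftz-f1, 17.2% for usp, 16.0% for Eip78C, 5.25% for Eip93F and 3.35% for Hr3. How reads shared by transcripts were treated is not given in the sources used here, and what part this had in the low counts was not tested. Levels are therefore compared between libraries and not between genes.

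Read together, the 11 transcripts with a base mean of 10 or more comprised 4 positive and 7 negative log2 fold changes by edgeR (the authors' deposited table), with a median of -0.12. Over the 7180 transcripts at that level, 48.7% were negative and the median was 0.01. Library B lay outside the range of A, C and D for 4 of the 11, above it for the leading br transcript and below it for EcR, Hr4 and the leading Eip75B transcript. Over the 4403 decoded transcripts with a base mean from 10 to 400 it lay above for 25.2%, below for 29.2% and outside for 54.4%, so that a share of 4 in 11 is no result about these genes. Without library C, B lay outside A and D for all 11, where 77.9% of the 4403 transcripts did. The count stayed at 4 without A and without D, where the shares were 65.4% and 65.5%.

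Many of these transcripts shared their 2 highest libraries, though not the full order. B and C were the 2 highest libraries for 7 of the 11, all of br and 3 of Eip75B, and A and D for 3, those of EcR and Eip74EF and the leading one of Eip75B. The remaining one, of Hr4, was highest in A and C. Over the 4403 transcripts, B and C were the 2 highest for 24.9%, A and D for 19.9% and A and C for 9.86%. This way of counting was chosen after the values were seen, transcripts of a gene are not independent, and no test was made. It took no account of counting error. For the leading transcripts of the 5 genes, the Poisson interval of the second highest library overlapped that of the next. For br these were 249 to 320 in C and 231 to 283 in A. The same held for Eip75B NM_168757 and NM_001259892, but not for the 3 lower br transcripts and Eip75B NM_168756. Set2 itself, with normalized counts of 6.75, 23.3 and 0 in A, C and D, against 32.4 in B, had the same 2 highest libraries as br. B and C lie on different sides of the authors' comparison. The median ratio of the highest to the lowest of A, C and D was 4.06 for the 11 transcripts and 2.001 for the 4403. The 6 lower br and Eip75B transcripts had ratios from 4.06 to 10.9, while the leading transcripts of the 5 genes had ratios from 1.32 to 2.70, with a median of 1.88.

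The wider pathway was described by 62 further genes. None was past the threshold in the authors' deposited tables of edgeR or DESeq2 results. At an unadjusted p under 0.05 there were 4 by edgeR, Eo, Hr51, ImpE2 and Imp, and 1, Imp, by DESeq2. Among the 31 genes with a base mean of 10 or more the counts were 2 by edgeR and 1 by DESeq2, and the shares over all 7180 transcripts at that level were 8.77% and 7.02%, so these counts are no result about the pathway. Of the 31, 14 had positive and 17 negative log2 fold changes by edgeR (the authors' deposited table), with a median of -0.10, and 11 of the 62 were listed at 0.

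**Figure D4:**
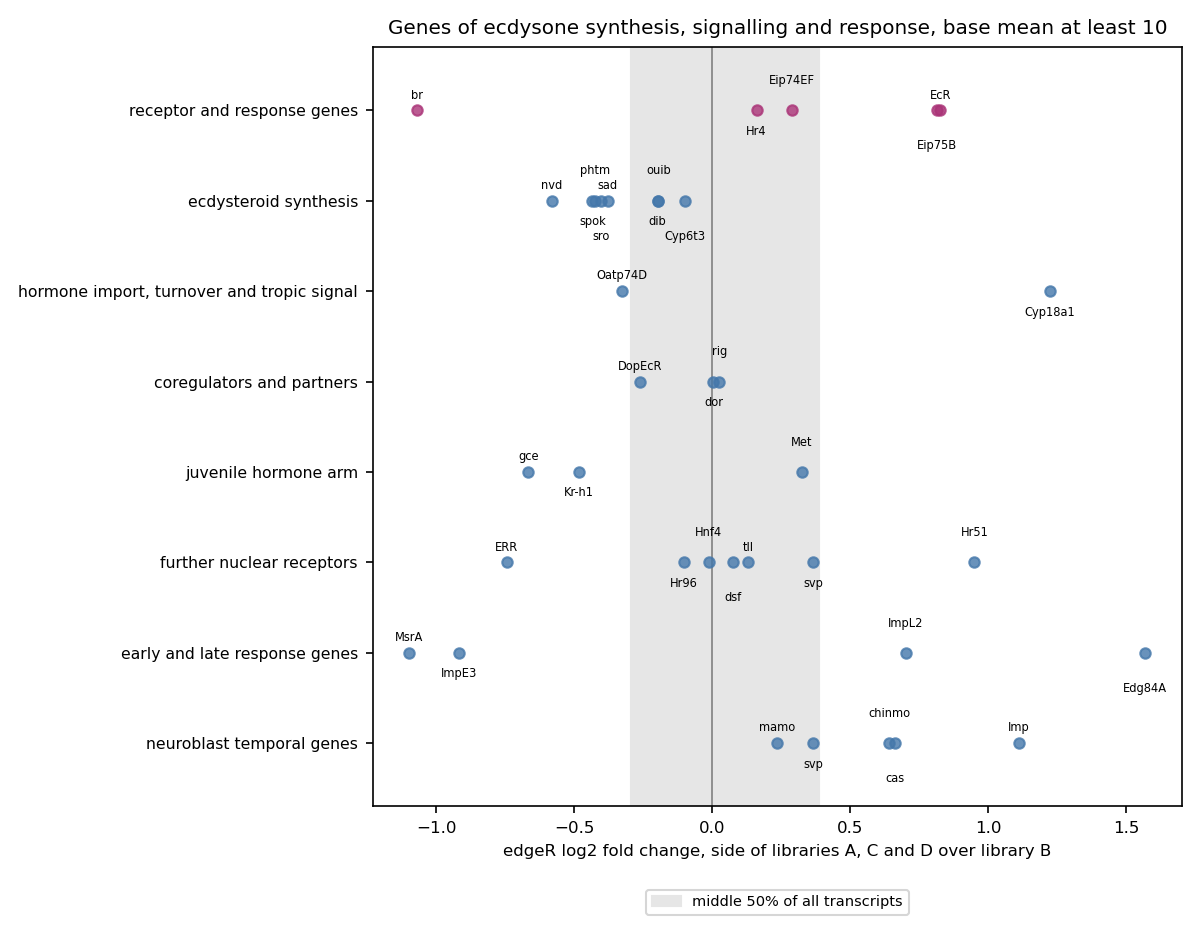
Log2 fold changes (side of libraries A, C and D over library B) from the authors' deposited edgeR table, for the leading transcripts with a base mean of 10 or more of the receptor and response genes (top row) and of the other genes of the pathway by role. Each point is a gene and the grey band holds the middle 50% of all transcripts at that level; the 8 synthesis genes all lie left of 0 and the 5 neuroblast temporal genes right of it.

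Upstream of the receptor, 8 of the 11 genes of ecdysteroid synthesis had a base mean of 10 or more. All 8 were negative, and their median log2 fold change was -0.39 by edgeR (the authors' deposited table). The main site of this synthesis is the ring gland, which is attached to the brain. sad, which encodes a late hydroxylase of the pathway, had normalized counts of 7333, 2962 and 1922 in A, C and D, against 5289 in B. spok, an enzyme gene of the so-called black box, had 1043, 478 and 565 in A, C and D, against 935 in B. For both genes A lay above B, and C and D below it. The uniform sign rested on single libraries: without D the log2 ratios of dib and ouib were 0.05 and 0.07, and without A that of Cyp6t3 was 0.05. That of sad was -0.04 without D and -1.11 without A, against -0.38 with all libraries. Among the genes of import, turnover and tropic signals, Cyp18a1, whose product inactivates the hormone, had 12.8, 8.87 and 31.4 in A, C and D, against 7.21 in B, and Eo had 4, 6 and 0 reads in A, C and D and 15 reads in B. Coregulators had a median of 0.00 over 3 genes by edgeR (the authors' deposited table), and their 2 members with the smallest p-values were alien (6, 6 and 2 reads in A, C and D and 1 read in B) and DopEcR, a membrane receptor for ecdysteroids and dopamine (44, 96 and 24 reads in A, C and D and 76 reads in B).

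Among further nuclear receptors, with a median of 0.08 over 7 genes, Hr51 had normalized counts of 795, 990 and 1614 in A, C and D, against 579 in B. Its log2 fold change was 0.95 by edgeR (the authors' deposited table, unadjusted p = 0.0415, FDR 1). Hr51 is known for the regrowth of mushroom body axons after ecdysone-driven pruning. Hr83 had 8, 6 and 5 reads in A, C and D and 2 reads in B. In the juvenile hormone arm, which opposes metamorphosis, 2 of 3 genes were negative. Its target Kr-h1 had normalized counts of 87.1, 204 and 96.9 in A, C and D, against 181 in B, again with C and B the highest, and the receptor gene gce had 4.73, 19.95 and 9.98 in A, C and D, against 18.0 in B.

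Other early and late response genes were mostly too low to rank. Of 19, 4 had a base mean of 10 or more, with 2 in each direction. ImpE2, an imaginal disc gene, had 2, 0 and 0 reads in A, C and D and 9 reads in B, and an unadjusted p of 0.00958 with an FDR of 0.618 by edgeR (the authors' deposited table). Cth, the symbol RefSeq uses for Eip55E, had 6, 6 and 7 reads in A, C and D and 1 read in B. Of 6 neuroblast temporal genes, which mark the age of neural stem cells, Syp was listed at 0 and the other 5 were positive, with a median of 0.64 by edgeR (the authors' deposited table). Imp, an RNA-binding protein gene of young neuroblasts, had normalized counts of 2911, 3722 and 5128 in A, C and D, against 1799 in B, and its log2 fold change of 1.11 had an unadjusted p of 0.00605 and an FDR of 0.428 by edgeR (the authors' deposited table). chinmo, which acts beside Imp, had 1322, 1783 and 2674 in A, C and D, against 1221 in B. D was the highest library for Imp and chinmo, as for EcR and the leading Eip75B transcript.

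The tissue was checked by marker genes. All 10 neuronal markers had reads, and 9 of 9 with a base mean of 10 or more were positive, with a median of 0.45 by edgeR (the authors' deposited table). para and Syt1 had the smallest unadjusted p-values, 0.0336 and 0.183. Where reads were decoded, this uniform sign rested partly on single libraries. Without library C the log2 ratios of brp and Syx1A were -0.01 and -0.11, against 0.22 and 0.37 with all libraries. Normalized counts in A were below those in B for brp (238 against 315), Syx1A (68.2 against 99.1), cpx (20.3 against 25.2) and nSyb (63.5 against 64.0). For fne A was higher (18.9 against 13.5). The median was 0.05 for glia, where Mdr65 (-0.50) and Gs2 (0.48) led, and 0.07 for neuroblasts, where wor (0.59) and pros (-0.91) led. Genes of other tissues that a dissection can carry were mostly negative; the medians below are over markers with a base mean of 10 or more. By edgeR (the authors' deposited table) the medians were -8.03 over 7 salivary gland genes (4 of the 8 listed called), -6.62 over Lsp1alpha and Lsp1gamma of the fat body (Lsp1alpha called by DESeq2 alone), -2.26 over 4 muscle genes (Mhc and TpnC73F, which is below that level, had the smallest p), -5.76 over PPO1 and PPO2 of haemocytes (PPO2 called), -0.78 for trachea (serp and verm), -0.59 for imaginal disc (ap and wg led) and -0.40 for the ring gland, a list that shares genes with that of synthesis (Akh and sad led). Of the ring gland genes named, Akh was positive (0.87) and sad negative (-0.38) by edgeR (the authors' deposited table). Akh was also positive by DESeq2 (0.74). By DESeq2 the medians were -1.81 for the fat body and -2.77 for haemocytes. The unadjusted edgeR p was 0.106 for Lsp1alpha, 0.112 for Lsp1gamma and 0.181 for PPO1. Outside these medians, with few reads, apolpp (0.82) and Lsp2 (3.21) of the fat body and Col4a1 (0.34) and NimC1 (0.36) of haemocytes were positive by edgeR. Lsp1beta (-2.15) of the fat body and Pxn (-1.45) of haemocytes were negative. jhamt of the ring gland, Fbp1 and Yp1 of the fat body, Hml of haemocytes and trh of trachea were listed at 0. The part of these tissues in the values of the ecdysone genes was not tested.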

How the data were processed

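RNA sequencing of larval central nervous systems was deposited as 2 tables of the authors' comparison. Per the submitters' processing notes, HISAT2, featureCounts, DESeq2, edgeR and the build dm3 were used, with no versions. Per the file headers, the authors' DESeq2 table gives a base mean, which is a signal (counts over size factors, averaged over libraries), a log2 fold change, its standard error and Wald statistic (each a score), and p-values; the authors' edgeR table gives log2 fold change, log2 CPM, an F score and p-values. Neither holds columns per sample (0 left out).

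Steps of single reads were found from base means up to 0.5 and refined up to 30. Effective library sizes and a dispersion of 0.155 were then fitted to the log2 CPM that the authors' edgeR run gave, with that package's published formula and a prior count of 2, with a largest misfit of 5.665e-10. Sets of whole reads had to meet the base mean to its printed digits and log2 CPM within 3.000e-09. Of 67 shifted base means above 30, 0 gave a set. The method was tested on simulated reads. Of the pathway transcripts with a base mean between 400 and 5000, 11 were also decoded.

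No differential test was rerun. An FDR under 0.05 was a call. Genes and lists were chosen with earlier results of these data known. Where 1 transcript stands for a gene, it is the leading one, of largest base mean; from each list, called genes or else the 2 with the smallest unadjusted p are named. Of the transcripts, 33992 matched a gene of RefSeq Release 6 and 123 did not; 6 listed symbols were matched through synonyms. The analysis used Python 3.11.15, numpy 2.4.6, scipy 1.17.1 and numba 0.67.0. Replicate origins are not stated beyond the labels. Library B was alone on its side, so the p-values rest on the spread between libraries A, C and D and hold no measure of spread on the side of B.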

Additional observations from a re-analysis of the deposited data

How the results depend on the processing

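Of 71 combinations of result and alternative, 70 were kept by rules that differed in strictness. Counts had to stay within 1.5 times, and medians within 1 SD between libraries A, C and D. The log2 fold change of a gene had only to keep its sign, so usp was kept at -1.44 by edgeR and -0.51 by DESeq2, and Eip93F at -3.10 and -0.13. The log2 ratio of a transcript had to stay within 1 SD of its own values in A, C and D. That rule let signs change, as for Eip75B NM_168757, at -0.12 with all libraries and 0.27 without A. The count of called transcripts of the receptor and response genes stayed 0 in the DESeq2 table, in both tables together, at thresholds of 0.01 and 0.1, and when p was adjusted only among transcripts at 10 or more in base mean (smallest adjusted p 0.598) or above 0 (0.822). The median log2 fold change of the 10 leading transcripts was 0.23 in the edgeR table and 0.14 in the DESeq2 table. It was 0.29 over 9 genes with transcripts averaged by base mean, -0.07 over all transcripts at 1 or more in base mean and -0.12 over those of at least 10, which count br and Eip75B several times, so its sign depended on how transcripts were counted (all from the authors' deposited tables). The median log2 ratio of decoded reads, 0.32, ran from 0.23 to 0.50 when library A, C or D was left out. The exception was the count of transcripts with library B outside the rest, a count added with the values known, which was 4 with all libraries and 11 without C. For the lower br and Eip75B transcripts at 10 or more in base mean, C alone of A, C and D lay above B. For Eip74EF C alone lay below B, so that leaving out C put B outside for all of these. Why C differed was not tested. Pathway calls stayed 0, and marker calls numbered 5 in the edgeR and 6 in the DESeq2 table, which added Lsp1alpha.

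No paired analysis was possible because no column belongs to a labelled sample. Fits without a labelled sample, the replicate block and other normalizations were not run for the same reason. Depth limits Eip78C, Eip93F, Hr3, ftz-f1 and usp, none of which had over 19 reads in all libraries together.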

Other observations

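The usp transcript NM_001272239 and the Eip75B transcript NM_079409 had the same reads in every library, 4, 4 and 1 in A, C and D and 9 in B, and therefore identical values in both deposited tables. No other transcript of the receptor and response genes had that set.

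The median log2 ratio of the 5 leading transcripts to library B was 0.12 for library A, 0.16 for C and 0.80 for D. All 3 values were positive, but each was the ratio of a single transcript, that of Eip74EF for A and D and that of Eip75B for C. In each case the Poisson intervals of the library and of B overlapped. The leading br transcript, lower in A, C and D than in B, does not show in these medians. The same median over all transcripts was not computed.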
